A study of Citrullus lanatus with 26 samples.

Results

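The microRNA families miR162 and miR168 were followed in small RNA from watermelon (Citrullus lanatus) fruit flesh, by taking each listed name that carries miR162 or miR168 as its family. The labels define 2 sets of libraries, called the stage set and the genotype set here. The stage set tables list 1 such name among 208, cme-miR162, and none of the miR168 family. The genotype set tables list 63 among 1263, of which 31 belong to the miR162 family and 32 to the miR168 family. Many of these names carry identical counts, and the 63 names hold 20 different count patterns. The leading names are cme-miR162 and ccl-miR168, whose prefixes name the plant species under which they are listed and not watermelon.

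Both families act on the machinery that makes and uses microRNAs. In Arabidopsis and other plants miR162 targets the mRNA of DCL1, the Dicer enzyme that cuts microRNAs out of their hairpin precursors, and miR168 targets the mRNA of AGO1, the Argonaute protein that carries most microRNAs to their targets. Each microRNA is itself made by DCL1 and loaded into Argonaute, so each pair of microRNA and target forms a negative feedback loop. The mature miR168 comes from the 5p arm of its hairpin and miR162 from the 3p arm, while the opposite arm is usually degraded. miR403, which targets AGO2 in Arabidopsis, completes the list of pathway families, and the tables of both sets used here list no miR403 name.

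The stage set holds 18 libraries of the cultivar 97103 (Citrullus lanatus subsp. vulgaris), 3 each at fruit ages of 0, 1, 5, 10, 20 and 30 DAP, the age unit of the labels. The genotype set holds 8 libraries, 2 each of the germplasm PI296341FR at 10 DAP, 97103 at 10 DAP, PI296341FR at 30 DAP and 97103 at 30 DAP. All libraries were made from flesh RNA below a length of 100 nt, and no group carries a treatment or a transgene. Each genotype is represented by a single line. Whether the replicates are separate plants is not stated in the labels, so a p-value here covers the spread among the libraries at hand and no more, and that spread could be technical. The flesh is a mixture of cells, in which fewer cells of a type and less RNA per cell cannot be told apart, and mRNA of DCL1 or AGO1 was not measured.

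Listed counts per library ranged from 62050 to 153755 in the stage set and from 991234 to 60765998 in the genotype set, where a total over names with shared counts is not a number of reads. In the genotype set the depths of the PI296341FR libraries, 991234 to 9320392 counts, lay below those of all 97103 libraries, 9849871 to 60765998, so genotype and depth cannot be told apart. Levels are given as CPM, the count of a name relative to the library total, scaled with trimmed-mean (TMM) factors. They are also given as a share of the counts of all known-family names in the same library, counting identical patterns once, which needs no scaling factor. Names with a Benjamini-Hochberg adjusted p under 0.05 in edgeR's quasi-likelihood F test, adjusted over all names of the set, were called.

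How miR162 changed as 97103 flesh aged was asked with the 6 ages of the stage set. cme-miR162 was highest at 20 DAP and was lower again at 30 DAP. It averaged 19887 ± 2038 CPM at 20 DAP, against 7628 ± 1793 CPM at 0 DAP (SD, n = 3 each), and 9031 ± 2487 CPM at 30 DAP. It was among the more abundant known names of the set, ranking between 2 and 7 of 29 in the libraries.

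The counts behind these levels were 1351, 746 and 1269 at 0 DAP and 1989, 1236 and 1727 at 1 DAP. They were 2023, 2589 and 2293 at 5 DAP and 2381, 1650 and 1998 at 10 DAP. They were 1811, 1505 and 1109 at 20 DAP, and at 30 DAP they were 409 in the first library, 680 in the last and slightly under 409 in the remaining one. Each 30 DAP count lay below each count of the other ages, and those 3 libraries were the only ones in which cme-miR162 ranked as low as 7 among the known names.

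On the scaled axis, cme-miR162 had 9159, 5655 and 8068 CPM at 0 DAP and 10727, 7311 and 11147 CPM at 1 DAP. It had 16069, 18375 and 17167 CPM at 5 DAP and 17905, 10986 and 13271 CPM at 10 DAP. It had 18249, 22170 and 19243 CPM at 20 DAP and 7245, 7977 and 11871 CPM at 30 DAP. The 5 and 20 DAP libraries all lay above those of 0, 1 and 30 DAP, whereas the 10 DAP group overlapped with 1, 5 and 30 DAP.

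Across all ages, cme-miR162 changed in the F test with an adjusted p of 6.20e-05, among 85.8% of the 204 tested names that did. The level at 1 against 0 DAP did not pass the test (log2 fold change 0.35, SE 0.22, adjusted p 0.526). edgeR called 0 names there, 27 had an unadjusted p under 0.05, and DESeq2 called 3, not including cme-miR162. Between 5 and 1 DAP cme-miR162 rose by 0.82 on the log2 scale (SE 0.22, adjusted p 0.00549). In that step 53.4% of all tested names were called. With the total of the known-family names as the library size the change was 0.21 and was not called (adjusted p 0.264), and with no factors it was 0.40 (adjusted p 0.0402).

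With TMM factors the differences among 5, 10 and 20 DAP did not pass the test. The log2 fold change of cme-miR162 was -0.29 (SE 0.22, adjusted p 0.289) at 10 against 5 DAP, a step in which 38.7% of names were called. It was 0.50 (SE 0.22, adjusted p 0.117) at 20 against 10 DAP, where 19.6% were called. Without the first 10 DAP library, the highest of its group, this step was 0.71 with an adjusted p of 0.0421. The level at 20 DAP was 0.21 (SE 0.22, adjusted p 0.451) above that at 5 DAP, where 56.9% of names were called. This difference was called with known-family totals (0.67, adjusted p 0.00234) and with these ages alone in the fit (0.28, adjusted p 0.0328).

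The last step brought the fall. cme-miR162 fell at 30 against 20 DAP, with a log2 change of -1.14 (SE 0.23, adjusted p 0.00108). In this step 19.6% of all tested names were called and 8.33% were called lower, and cme-miR162 was the 1 name among the 25 tested known-family names that was, against 6 known-family names called higher. The median change of the known-family names was 0.37, and that of all names was -0.03. The fall also passed the test against 5 DAP, at -0.93 (SE 0.23, adjusted p 0.00169), where 61.8% of all names were called.

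Against 10 DAP the fall at 30 DAP was -0.64 (SE 0.23, adjusted p 0.028), where 44.1% of names were called. This call did not hold without the first 10 DAP library (-0.42, adjusted p 0.156), the first 30 DAP library (-0.50, adjusted p 0.173) or the second 30 DAP library (-0.56, adjusted p 0.131). It also missed the threshold with relative log expression (RLE) factors (adjusted p 0.0647), with DESeq2 (0.0555) and with these ages alone in the fit (0.0651).

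Ordered by mean scaled level, the ages ran 20, 5, 10, 1, 30 and 0 DAP from high to low. Of the neighbours in this order, 20 and 5, 5 and 10, 1 and 30, and 30 and 0 DAP did not pass the test with TMM factors, while 10 against 1 DAP did. Over the 15 pairs of ages, cme-miR162 was called in 9, being higher at the later age in 6 and lower in 3, where the share of all names called per pair ran from 0% to 73.5%. The highest fold changes were at 20 against 0 DAP, 1.38 (SE 0.23, adjusted p 2.64e-05), where 73.5% of names were called, and at 5 against 0 DAP, 1.17 (SE 0.23, adjusted p 0.000307), where 59.3% were. cme-miR162 also rose at 20 against 1 DAP (1.03, adjusted p 0.000506, 71.1% of names called) and at 10 against 0 DAP (0.88, adjusted p 0.0020, 67.6% called). At 10 against 1 DAP the change was 0.53 (SE 0.22, adjusted p 0.0432), where 69.1% of names were called, and it missed the threshold with RLE factors and DESeq2. It also did so without the first (adjusted p 0.0515) or second (0.188) 1 DAP library, or without the first (0.228) or last (0.0576) 10 DAP library. At 30 against 1 DAP it was -0.11 (SE 0.22, adjusted p 0.677), where 68.6% were.

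**Figure D1:**
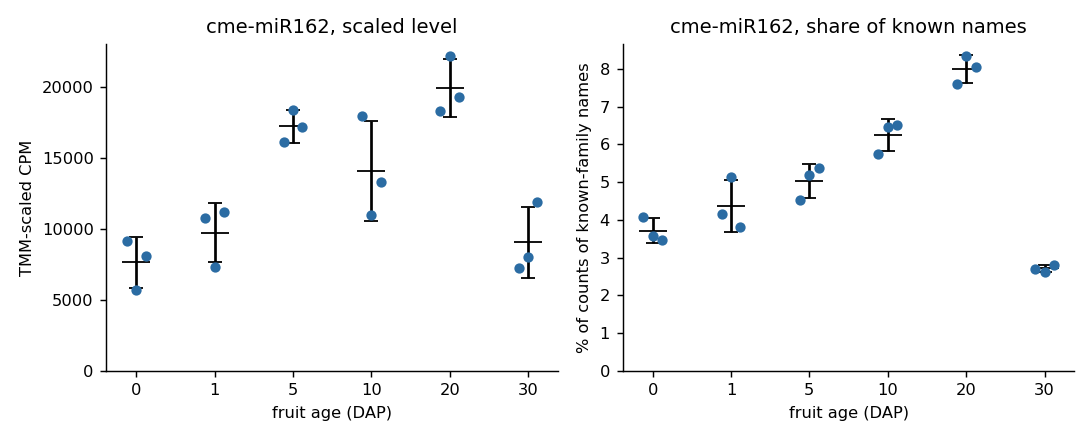
Level of cme-miR162 in each 97103 library by fruit age in DAP, as TMM-scaled CPM (left) and as a percentage of known-family counts (right). Points are libraries, and bars are the mean and SD of 3. On the right the 20 DAP libraries sit between 7.60% and 8.34%, above all others, and the 30 DAP libraries sit between 2.62% and 2.81%, under all others.

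The share of known-family counts showed the same late fall with less spread. cme-miR162 took 4.08%, 3.58% and 3.46% at 0 DAP and 4.15%, 5.14% and 3.80% at 1 DAP. It took 4.53%, 5.19% and 5.36% at 5 DAP and 5.75%, 6.46% and 6.51% at 10 DAP. It took 7.60%, 8.34% and 8.05% at 20 DAP and 2.70%, 2.62% and 2.81% at 30 DAP. By this measure the group means were higher at each age up to 20 DAP, the 10 DAP libraries lay above all of 5 DAP, and the 30 DAP libraries lay below all of 0 DAP, as the plot of level and share by age shows. Counting error was small beside these gaps, with a 95% Wilson interval of 2.45% to 2.97% for the first 30 DAP library. The denominator of the share moved with age as well. In it, cme-miR159a averaged 247057 CPM at 5 DAP, 152126 CPM at 10 DAP and 88287 CPM at 20 DAP. The rise of the share up to 20 DAP can therefore not be read as a rise of cme-miR162 alone. Ratios without the most abundant known name are given with the processing choices below.

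The mean share at 30 DAP was 2.71% ± 0.10, against 7.996% ± 0.37 at 20 DAP (SD, n = 3 each), a ratio of 0.339. The ratio was 0.434 at 30 against 10 DAP, where the mean at 10 DAP was 6.24% ± 0.42. At 20 against 0 DAP it was 2.16, with a mean of 3.71% ± 0.33 at 0 DAP, and at 30 against 0 DAP it was 0.731. The groups did not overlap in any of these pairs, and the exact two-sided permutation test gave p = 0.1 in each, the smallest p that 3 libraries against 3 allow. How many of all names separate in these pairs is not given here.

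Whether the oldest flesh had more or less miR162 than the youngest depended on the scaling. At 30 against 0 DAP the log2 fold change was 0.24 (SE 0.23, adjusted p 0.331) with TMM factors, in a comparison where 67.6% of names were called. It was -0.84 (adjusted p 7.47e-05) with the total of the listed names as the library size and -0.45 (adjusted p 0.0203) with the total of the known-family names. The median of all names was -1.06 and -0.68 under these totals, and relative to that median cme-miR162 lay at 0.22 and 0.23, against 0.25 with TMM factors. The TMM factors of the 30 DAP libraries lay between 0.53 and 0.70, and those of the 0 DAP libraries between 1.24 and 1.39.

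The fall from the 20 DAP level was called under all 4 scalings. At 30 against 20 DAP the log2 fold change of cme-miR162 was -1.09 with RLE factors, -1.56 with known-family totals and -1.73 with no factors, beside -1.14 with TMM factors. Relative to the median of all names the 4 values lay between -1.17 and -1.09. At 10 against 5 DAP, by contrast, the sign of the uncalled difference turned to 0.31 with known-family totals and 0.01 with no factors.

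**Figure D2:**
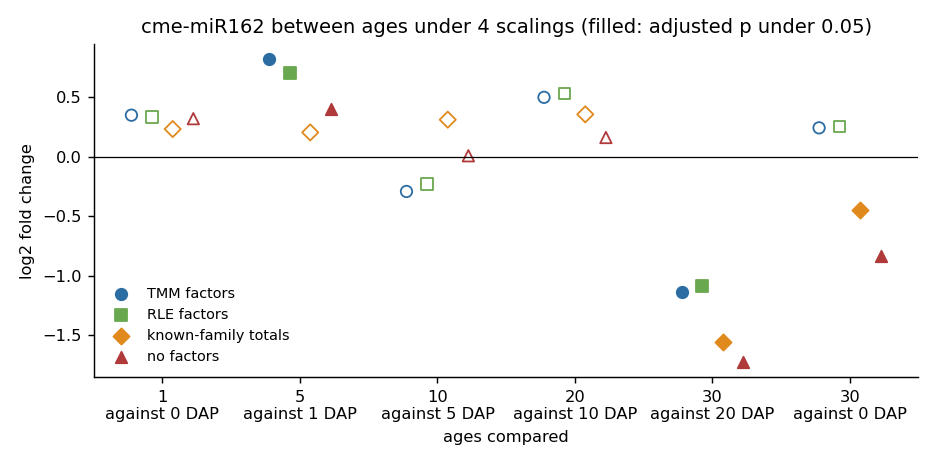
Log2 fold change of cme-miR162 between ages in the stage set, by comparison on the horizontal axis and with 1 symbol for each of 4 scalings; filled symbols have an adjusted p under 0.05. At 30 against 20 DAP all 4 lie between -1.73 and -1.09 and are filled, whereas at 30 against 0 DAP they span -0.84 to 0.26.

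Other names with a like pattern were looked for by Pearson's r of log2 CPM with cme-miR162 over the 18 libraries, among 188 names. The highest were novel_miR_136 (r = 0.762), novel_miR_48 (0.730), cme-miR530b (0.703), novel_miR_12 (0.699) and novel_miR_167 (0.697). These values describe libraries that share their depth and scaling. novel_miR_48 averaged 1026 ± 240 CPM at 20 DAP, against 511 ± 43.4 CPM at 0 DAP, and had 625 ± 47.4 CPM at 30 DAP (SD, n = 3 each). cme-miR530b did not share the late fall, with 863 ± 341 CPM at 30 DAP and 852 ± 208 CPM at 20 DAP. Of the known-family names, cme-miR159a (r = 0.459), of the family that targets GAMYB transcription factors, and cme-miR2111a (0.441), of a phloem-mobile family that targets F-box mRNAs, came next. They ranked only 31 and 36 among the 188 names. cme-miR159a had its lowest mean at 20 DAP, 88287 ± 5696 CPM, and 114134 ± 39128 CPM at 30 DAP (SD, n = 3 each).

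cme-miR2111a was also the 1 tested name of the phloem-mobile families (miR395, miR398, miR399, miR827 and miR2111). These families were taken as possible markers of another tissue, and whether their level follows the amount of phloem was not tested. cme-miR2111a averaged 1601 ± 527 CPM at 30 DAP, against 669 ± 99.7 CPM at 20 DAP (SD, n = 3 each), where cme-miR162 was lower at 30 DAP. miR395, miR398, miR399 and miR827 names are not listed in the stage set tables used here, and the part of phloem in the miR162 pattern was not tested.

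How far the families differed between PI296341FR and 97103, and between 10 and 30 DAP in each, was asked in the genotype set. miR168 was among the most abundant families there and miR162 was scarce. With 1 entry for each known family, its highest name, and 1 for each unclassified name, 35 in all, miR168 ranked 1 or 2 in the 8 libraries and miR162 between 14 and 25. With TMM factors neither family passed the test in any comparison of this set.

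The 31 miR162 names held 5 count patterns that differed by at most 2.22% in any library, so they are read as copies and cme-miR162 stands for them. Of the miR168 names, 24 in 10 patterns differed by at most 4.43%, among them ccl-miR168, cme-miR168 and ath-miR168a. The remaining names were aly-miR168a-3p, with mtr-miR168c-3p, ptc-miR168a-3p and ptc-miR168b-3p, which carry the 3p arm, and nta-miR168a, nta-miR168b, nta-miR168c and bna-miR168b, with counts of their own. The treatment of reads matching more than 1 name is not given in the sources used here, so the names are uncertain as separate molecules. All 63 names passed the filter on low counts, which was met by 1261 of 1263 names.

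ccl-miR168 had 27165 and 114597 counts in PI296341FR at 10 DAP, against 230520 and 24071 in 97103 at 10 DAP. It had 15612 and 244772 in PI296341FR at 30 DAP, against 372840 and 76169 in 97103 at 30 DAP. On the scaled axis the same libraries had 13813 and 25268 CPM in PI296341FR at 10 DAP, 20819 and 2733 CPM in 97103 at 10 DAP, 4911 and 22637 CPM in PI296341FR at 30 DAP, and 18569 and 3089 CPM in 97103 at 30 DAP. The spread within groups was larger than any difference between them, with the first and second 97103 libraries far apart at both ages.

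The share of ccl-miR168 in the known-family counts was 4.29% and 5.09% in PI296341FR, against 5.04% and 0.557% in 97103, at 10 DAP. At 30 DAP it was 3.46% and 6.45% in PI296341FR, against 2.66% and 0.281% in 97103. The groups overlapped at 10 DAP, and at 30 DAP both PI296341FR libraries lay above both of 97103. How many of all names separate in this way is not given here. The means were 4.95% ± 2.11 in PI296341FR and 1.47% ± 1.68 in 97103 at 30 DAP (SD, n = 2 each), a ratio of 3.37 with an exact two-sided permutation p of 0.333, the smallest that 2 libraries against 2 allow. With known-family totals as the library size, the log2 fold change of ccl-miR168 at 30 DAP was 1.75, where the median of all names was 1.71.

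cme-miR162 had 32 and 180 counts in PI296341FR, against 541 and 493 in 97103, at 10 DAP. At 30 DAP it had 112 and 650 in PI296341FR, against 774 and 488 in 97103. Scaled levels were 16.3 and 39.7 CPM in PI296341FR at 10 DAP, 48.9 and 56.0 CPM in 97103 at 10 DAP, 35.2 and 60.1 CPM in PI296341FR at 30 DAP, and 38.5 and 19.8 CPM in 97103 at 30 DAP. At 10 DAP both PI296341FR libraries lay below both of 97103 on this scale, and at 30 DAP the groups overlapped.

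By share, cme-miR162 was lower in PI296341FR than in 97103 at 10 DAP and higher at 30 DAP. At 10 DAP it was 0.00505% and 0.00799% in PI296341FR, against 0.0118% and 0.0114% in 97103, a ratio of means of 0.561. At 30 DAP it was 0.0248% and 0.0171% in PI296341FR, against 0.00552% and 0.00180% in 97103, a ratio of 5.73. The groups did not overlap at either age, and each comparison had an exact two-sided permutation p of 0.333, the smallest possible. How many of all names separate in this way, by share or by CPM, is not given here. With known-family totals as the library size, the median log2 fold change of all names was 0.27 at 10 DAP and 1.71 at 30 DAP. Relative to that median cme-miR162 lay at -1.10 at 10 DAP and 0.80 at 30 DAP. The share that rests on the smallest count, 32, has a 95% Wilson interval of 0.00358% to 0.00713%, and such intervals cover counting error only.

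**Figure D3:**
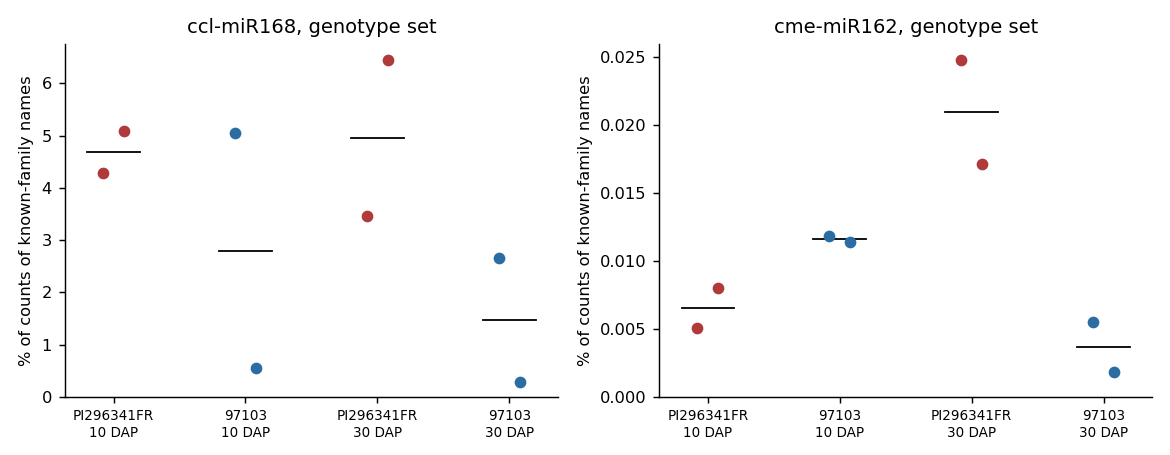
Percentage of known-family counts taken by ccl-miR168 (left) and cme-miR162 (right) in each library of the genotype set, by genotype and fruit age in DAP. Points are libraries and horizontal lines are means of 2. For ccl-miR168 the 97103 libraries span 0.281% to 5.04%, and for cme-miR162 PI296341FR lies below 97103 at 10 DAP and above it at 30 DAP.

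In the count test across all names, PI296341FR against 97103 at 10 DAP gave a log2 fold change of -0.90 (SE 1.21) for cme-miR162 and 0.73 (SE 0.97) for ccl-miR168, each with an adjusted p of 0.689. edgeR called 0 of the 63 names of both families, beside 0.0793% of all names. One of the 63, bna-miR168b, had an unadjusted p under 0.05, and DESeq2 called 0. The median change was -0.90 over the miR162 names and 0.73 over the miR168 names, beside 0.05 over all names.

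At 30 DAP the log2 fold change of PI296341FR against 97103 was 0.71 (SE 1.21, adjusted p 0.782) for cme-miR162 and 0.35 (SE 0.97, adjusted p 0.919) for ccl-miR168. edgeR called 0 of 63 names, DESeq2 called 0 and none had an unadjusted p under 0.05, in a comparison where 25.9% of all names were called. This result depended on the scaling. With the total of listed names and with the total of known-family names as the library size, 33 of the 63 names were called higher in PI296341FR, all 31 miR162 names with nta-miR168a and nta-miR168b. cme-miR162 then lay at 2.55 (adjusted p 0.0438) and 2.52 (adjusted p 0.0498). The median of all names was 1.70 and 1.71 under these totals, with 603 and 602 of 1261 names called. Relative to that median cme-miR162 lay at 0.85 and 0.80, against 0.74 with TMM factors.

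Between ages within a genotype, cme-miR162 had a log2 fold change at 30 against 10 DAP of 0.76 (SE 1.21, adjusted p 0.794) in PI296341FR and of -0.85 (SE 1.21, adjusted p 0.648) in 97103. For ccl-miR168 it was -0.50 (SE 0.97, adjusted p 0.874) in PI296341FR and -0.12 (SE 0.97, adjusted p 0.940) in 97103. edgeR and DESeq2 each called 0 of the 63 names in either genotype, beside 11.4% of all names in PI296341FR and 19.3% in 97103. At an unadjusted p under 0.05 there was 1 name in PI296341FR, bna-miR168b, and 0 in 97103.

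The 11.4% and 19.3% were all lower at 30 DAP, and the median over all names was -1.18 in PI296341FR and -0.75 in 97103. The phloem-mobile families gave 135 lower names of 176 tested in each genotype, with medians of -2.93 in PI296341FR and -2.48 in 97103. They were among 144 lower known-family names in PI296341FR and 243 in 97103. The genotype set lists 135 miR395 and 41 miR2111 names, and none of miR398, miR399 or miR827. How the names called lower divide between miR395 and miR2111 is not given here. In PI296341FR these calls did not hold with no factors or with known-family totals. Many names of this set carry identical counts, so these are not numbers of separate molecules. The miR162 names had a median of 0.76 in PI296341FR and -0.85 in 97103, and the miR168 names had -0.50 in PI296341FR and -0.12 in 97103.

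The test of whether the age change itself differed between genotypes gave an interaction of 1.61 (SE 1.71, adjusted p 0.927) for cme-miR162 and -0.38 (SE 1.37, adjusted p 0.954) for ccl-miR168. Here too 0 of 63 names were called by edgeR or DESeq2 and 0 had an unadjusted p under 0.05, beside 0.159% of all names called. With 2 libraries a group and a common dispersion of 0.422, against 0.0323 in the stage set, the test had little reach. In simulated counts of the 10 DAP genotype comparison it called 30 of 100 names changed by 3 on the log2 scale and 9 of 100 changed by 2. Those counts were drawn independently for each name at the common dispersion. The listed names share count patterns and differ in spread, so this reach need not hold for the members.

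The direction of ccl-miR168 was not fixed in this set. The 30 against 10 DAP change in 97103 was 1.99 without the first 10 DAP library and 0.96 without the second 30 DAP library. PI296341FR against 97103 at 30 DAP was -0.48 with RLE factors and 1.77 with no factors. The median of all names was -0.56 and 1.70 under these scalings, and relative to it ccl-miR168 lay at 0.090 and 0.064. At 10 DAP the difference was -0.09 without the second 97103 library.

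The minor miR168 names were far lower than the 5p copies. nta-miR168a had 493 and 2617 counts in PI296341FR, against 1085 and 1226 in 97103, at 10 DAP. At 30 DAP it had 379 and 1074 in PI296341FR, against 1579 and 1349 in 97103. nta-miR168c lay between 104 and 1122 counts over the 8 libraries. bna-miR168b had 1 and 42 counts in PI296341FR and 23 and 1 in 97103 at 10 DAP, and 2 and 17 in PI296341FR and 47 and 7 in 97103 at 30 DAP.

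As a share, nta-miR168a took 0.0778% and 0.116% in PI296341FR, against 0.0237% and 0.0284% in 97103, at 10 DAP. At 30 DAP it took 0.0840% and 0.0283% in PI296341FR, against 0.0113% and 0.00498% in 97103. At both ages the PI296341FR libraries lay above those of 97103, and the adjusted test passed at 30 DAP only under the scalings without factors named above. Under those the median of all names was 1.70 and 1.71, also higher in PI296341FR. How many of all names separate in this way is not given here, and 2 libraries against 2 allow no exact two-sided permutation p under 0.333.

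The ratio of the arms of miR168 separated the genotypes, in a comparison chosen after the values were seen. The opposite arm, aly-miR168a-3p, had 812 and 2551 counts in PI296341FR, against 12597 and 1481 in 97103, at 10 DAP. At 30 DAP it had 275 and 6752 counts in PI296341FR, against 26294 and 12935 in 97103. The count of ccl-miR168 divided by that of aly-miR168a-3p in the same library was 33.5 and 44.9 in PI296341FR, against 18.3 and 16.3 in 97103, at 10 DAP. It was 56.8 and 36.3 in PI296341FR, against 14.2 and 5.89 in 97103, at 30 DAP. Every PI296341FR library lay above every 97103 library, and the 5p arm exceeded the 3p arm in all 8.

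The geometric mean of this ratio was 41.9 in PI296341FR and 12.6 in 97103 (n = 4 each), a 3.34-fold difference. On the log2 scale it was 1.74, being 1.17 at 10 DAP and 2.31 at 30 DAP, with an SD over libraries of 0.34 in PI296341FR and 0.74 in 97103. An exact two-sided permutation test within age gave p = 0.0556, the smallest that its 36 arrangements allow, and 0.222 after Benjamini-Hochberg adjustment over the 4 ratios tested. The exact permutation over all 8 libraries, which ignored age and was not adjusted over the ratios, gave p = 0.0286, the smallest of 70 arrangements. With the values seen beforehand and the genotypes fully separated, both permutation p-values had to be the smallest possible. They therefore add no support to the difference. The depths of the genotypes do not overlap either, and the part of depth in this ratio was not tested.

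**Figure D4:**
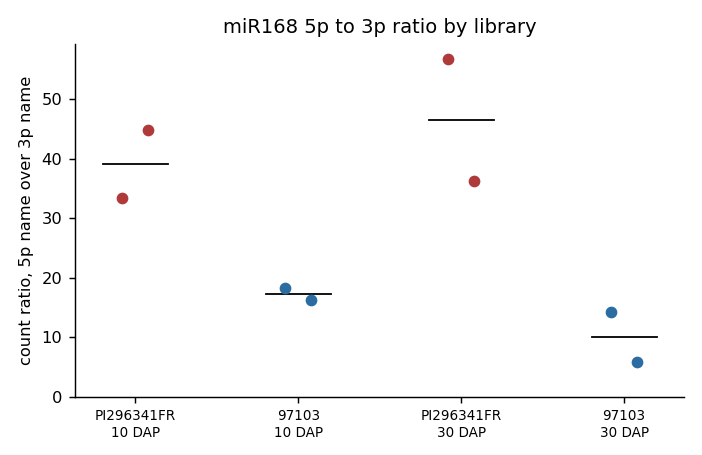
Ratio of the count of the 5p name ccl-miR168 to that of the 3p name aly-miR168a-3p in each library of the genotype set, by genotype and fruit age in DAP. Points are libraries and horizontal lines are means of 2. The 4 PI296341FR libraries sit between 33.5 and 56.8 and the 4 of 97103 between 5.89 and 18.3.

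The other 3 ratios did not separate the genotypes. ccl-miR168 over cme-miR162 was 849 and 637 in PI296341FR, against 426 and 48.8 in 97103, at 10 DAP, and 139 and 377 in PI296341FR, against 482 and 156 in 97103, at 30 DAP. These overlapped, with an exact permutation p of 0.389 within age. The ratios of nta-miR168a and nta-miR168c to ccl-miR168 overlapped as well, with an exact p of 0.778 and 0.833. Of the 3 families with names of both arms (miR166, miR168 and miR396), miR166 and miR396 had arm ratios that overlapped between the genotypes.

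Names most like ccl-miR168 over the 8 libraries were sought among 33 other entries. Each was the name with the highest r in its known family, picked by that r, or an unclassified name. The highest Pearson's r of log2 CPM was 0.870 for aly-miR160a-3p, of the family that targets auxin response factors, followed by 0.862 for osa-miR396a-3p. smo-miR156a (0.812), of the family that targets SPL transcription factors, bdi-miR172b (0.764), of the family that targets AP2-like factors, and han-miR2911 (0.627) came next. All share the libraries' depth, and all but han-miR2911 were low, with group means of 1.33 to 56.3 CPM. Over the 4 group means r was 0.424 for aly-miR160a-3p and 0.363 for smo-miR156a. It was 0.849 for osa-miR396a-3p, 0.946 for bdi-miR172b and 0.960 for han-miR2911.

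97103 at 10 and 30 DAP was measured in both sets, which list 18 names in common, cme-miR162 among them. Of the counts of these shared names, cme-miR162 took 2.77% ± 0.09 at 30 DAP and 6.32% ± 0.43 at 10 DAP in the stage set (SD, n = 3 each). In the genotype set it took 0.240% ± 0.173 at 30 DAP and 0.749% ± 0.208 at 10 DAP (SD, n = 2 each). The share was lower at 30 DAP in both sets, and the sets differed in its level by more than their spread.

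In 1 fit over the shared names, cme-miR162 had a log2 fold change at 30 against 10 DAP of -2.22 (SE 0.84, adjusted p 0.022) in the genotype set, where 77.8% of the 18 names were called. It had -1.68 (SE 0.67, adjusted p 0.084) in the stage set, where 11.1% were called. The test of the difference, genotype set minus stage set, gave -0.55 (SE 1.03, adjusted p 0.598), and 27.8% of the names were called in it. The median of this difference over the shared names was -2.44, and relative to it cme-miR162 lay at 1.90. The call in the genotype set did not hold with RLE factors (-0.30, adjusted p 0.851), with DESeq2 (-0.22, adjusted p 0.881), without its first 10 DAP library (-1.81) or without its second 30 DAP library (-1.57, adjusted p 0.159).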

How the data were processed

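Small RNA of flesh was sequenced in 26 libraries, grouped by the genotype and age of the labels. The authors deposited 1 table a library, with raw whole-number counts for each listed name. Per the labels' protocols, Trizol RNA was sized on a gel and made into Illumina libraries. fastp and BWA appear in the submitters' processing notes; what each was used for, the build, the set of miRNA sequences and how reads were assigned is not given in the sources used here. No sequence was used.

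Each set was fitted on its own with edgeR 4.0.16 in R 4.3.3 (filterByExpr at a minimum count of 10, totals recomputed, TMM factors, quasi-likelihood F test with all groups of the set, Benjamini-Hochberg over all names tested: 204 stage and 1261 genotype set names). For 97103 at 10 and 30 DAP, a joint fit of both sets used the 18 shared names without a filter. DESeq2 1.42.0, other scalings and filters, a replicate block, fewer groups, 1 name per count pattern, counts summed per family and leaving out each library were alternatives. The scripts were tested on simulated data. Shares count identical patterns once. Replicates correlated at a Spearman rho of 0.948 to 0.995 (stage) and 0.910 to 0.960 (genotype), and no pair agreed within sampling noise. Depths are given with the results.

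The text names all miR162, miR168 and miR403 names and the names with the highest r with the most abundant of them: 5 in each set and the 3 highest of known families in the stage set. The members and lists were chosen with earlier results of these data known. Same-numbered libraries were not taken as pairs.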

Additional observations from a re-analysis of the deposited data

Results flagged for a closer look

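The share of cme-miR162 in known-family counts moved in opposite directions with age in the genotypes of the genotype set. At 30 against 10 DAP the ratio of mean shares was 3.21 in PI296341FR and 0.315 in 97103, and in each genotype both 30 DAP libraries lay beyond both 10 DAP libraries. How many of all names separate in this way is not given here. The exact two-sided permutation p was 0.333 in each genotype, the smallest that 2 libraries against 2 allow. On the log2 scale leaving out 1 library gave 1.39 to 2.05 in PI296341FR and -2.69 to -1.07 in 97103. As the groups did not overlap, leaving out 1 library could not turn the sign. The difference of the shares between genotypes was not tested on this scale. With known-family totals as the library size, the median log2 fold change of all names at 30 against 10 DAP was -0.35 in PI296341FR and -1.67 in 97103. Relative to that median cme-miR162 lay at 2.03 in PI296341FR and 0.0021 in 97103. In the count test of all names, the interaction of genotype and age for cme-miR162 was 1.61 (SE 1.71, adjusted p 0.927, edgeR), and it was positive in each alternative run. The shares rest on 32 to 650 counts in PI296341FR and 488 to 774 counts in 97103. In the stage set, a separate set of 97103 libraries, the same ratio was 0.434.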

How the results depend on the processing

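In the stage set, the fall of cme-miR162 at 30 against 20 DAP and the F test over ages passed in each alternative run. With known-family totals the change at 5 against 1 DAP was 0.21 (adjusted p 0.264). At 10 against 1 DAP the call was lost with RLE factors (0.48), no filter (0.47), DESeq2 (0.48) and only these groups (0.54). At 10 against 5 DAP the sign turned with no factors (0.0087) and known-family totals (0.31). At 20 against 5 DAP the change was called with known-family totals (0.67) and only these groups (0.28). At 30 against 0 DAP it turned with no factors (-0.84) and known-family totals (-0.45), and at 30 against 1 DAP it was called with them (-1.16 and -0.69). At 30 against 10 DAP the call was lost with RLE factors (-0.56), DESeq2 (-0.56) and only these groups (-0.64). The cause was not tested.

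Leaving out 1 library gave 0.32 to 0.68 at 10 against 1 DAP, 0.35 to 0.71 at 20 against 10 DAP, -0.013 to 0.40 at 30 against 0 DAP, -0.41 to 0.0023 at 30 against 1 DAP and -0.88 to -0.42 at 30 against 10 DAP. The call at 10 against 1 DAP was lost without the first or second 1 DAP library or the first or last 10 DAP library. Where an age or genotype keeps 1 library, it is assumed to vary like the other groups.

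For ccl-miR168 none of these differences was called. PI296341FR against 97103 turned to -0.67 with counts summed per family at 10 DAP, and to -0.48 with RLE factors or DESeq2 and -0.14 with only these groups at 30 DAP. At 30 against 10 DAP in PI296341FR it turned to 0.010 with no factors, 0.079 with known-family totals, 0.70 with only these groups, 0.22 with 1 name per count pattern and 0.93 summed per family. In 97103 it turned to 0.80 with RLE factors and 0.81 with DESeq2. The interaction turned to 0.93 with no factors, 1.01 with known-family totals, 1.52 with 1 name per pattern and 1.02 summed per family. Leaving out 1 library gave -0.091 to 2.84 for PI296341FR against 97103 at 10 DAP and -1.14 to 1.53 at 30 DAP, -1.99 to 0.21 for 30 against 10 DAP in PI296341FR, -1.14 to 1.99 in 97103 and -2.49 to 1.47 for the interaction.

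For cme-miR162 in the genotype set, PI296341FR against 97103 at 30 DAP was called with no factors (2.55) and known-family totals (2.52), and with each of these 33 names of both families were. At 30 against 10 DAP in 97103 the sign turned with RLE factors (0.25) and DESeq2 (0.29), and leaving out 1 library gave -0.94 to 0.091. Over the shared names, the stage set change passed with DESeq2 (-1.41), and the genotype set change did not with RLE factors (-0.30) or DESeq2 (-0.22). The difference between the sets was 1.09 with RLE factors and 1.19 with DESeq2. Leaving out 1 library gave -2.05 to -1.21 in the stage set, -3.43 to -1.57 in the genotype set and -1.76 to 0.34 for the difference. The count of names of both families called was 0 or 1 without 1 library, both in PI296341FR against 97103 at 10 DAP and in 30 against 10 DAP in PI296341FR; the 1 name was bna-miR168b, without the first 97103 library at 10 DAP and without the first PI296341FR library at 10 DAP.

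With all listed names in the denominator, log2 ratios of the stage set shares of cme-miR162 were -0.84 at 30 against 0 DAP, 0.89 at 20 against 0 DAP, -1.73 at 30 against 20 DAP and -1.57 at 30 against 10 DAP. Without the most abundant known name in the denominator they were -0.90, 0.69 and, at 30 against 10 DAP, -2.17. In variants chosen after the values were seen, leaving out 1 library gave log2 share ratios of cme-miR162 of -1.20 to -0.54 for PI296341FR against 97103 at 10 DAP, 1.93 to 3.54 at 30 DAP and -2.69 to -1.07 for 30 against 10 DAP in 97103. For ccl-miR168 it gave -0.11 to 3.07 for PI296341FR against 97103 at 10 DAP, 0.90 to 4.14 at 30 DAP, -0.44 to 0.46 for 30 against 10 DAP in PI296341FR and -3.32 to 1.40 in 97103. The log2 difference of the miR168 arm ratio lay between 1.38 and 1.92 without 1 library. The groups behind the arm ratio and behind these cme-miR162 shares did not overlap, so leaving out 1 library could not turn their sign.

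The background of all names called moved too. In the stage set, 20 against 10 DAP gave 40 names, 70 with no factors and 25 with known-family totals, 30 against 10 DAP gave 90 and 171 with no factors, and 30 against 20 DAP gave 40 and 93 with no factors. DESeq2 called 3 at 1 against 0 DAP. For PI296341FR against 97103 at 10 DAP there was 1 name, and 48 with RLE factors or DESeq2, 50 with no factors or known-family totals, 51 with only these groups, 2 with 1 name per pattern and 0 with a stricter filter. At 30 DAP there were 327, and 603 with no factors, 602 with known-family totals and 99 with 1 name per pattern. For 30 against 10 DAP in PI296341FR there were 144, and 65 with RLE factors, 64 with DESeq2, 0 with no factors or known-family totals and 33 with 1 name per pattern. In 97103 there were 243, and 107 with RLE factors, 74 with only these groups and 24 with 1 name per pattern. The interaction gave 2, and 80 with no factors or known-family totals, 205 with DESeq2 and 8 with 1 name per pattern. The set by age test gave 5, and 0 with RLE factors, 13 with no factors and 2 with DESeq2. Leaving out 1 library gave 48 to 79 at 10 against 5 DAP, 22 to 38 at 20 against 10 DAP, 0 to 48 and 199 to 303 for PI296341FR against 97103 at 10 and 30 DAP, 0 to 142 and 36 to 188 for 30 against 10 DAP in PI296341FR and 97103, 0 to 2 for the interaction and 0 to 8 for set by age.

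Same-numbered libraries did not deviate together throughout: their correlations ran from -0.271 to 0.807 in the stage set, with 17 of 45 over 0.1, and from -0.413 to 0.562 in the genotype set, with 6 of 12 over 0.1. With the replicate number as a block, the log2 fold change of cme-miR162 was -1.16 (adjusted p 0.000773) at 30 against 20 DAP and 0.25 at 30 against 0 DAP, its 9 called pairs of ages stayed 9, and 0 of the 63 names of the genotype set were called. The block gave 53 names for PI296341FR against 97103 at 10 DAP and 9 for set by age. For 9 of 18 stage set libraries the mean correlation with libraries of other groups was highest for their own number, out of 3 numbers. In the genotype set this held for 6 of 8 libraries, out of 2 numbers. This is a hint from the data and not from the design.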
